A study of Homo sapiens with 3 samples.

Results

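MYD88, IRAK1, IRAK4, TRAF6, TLR7, TLR10 and UNC93B1 were followed in OCI-Ly10 cells that had been exposed to MZ1 for 6 h. They were chosen by name from the MYD88 pathway and matched by Ensembl ID to GENCODE release 29 symbols, which gave 7 of the 8 genes chosen, among 15808 genes in the count table. TLR9, the eighth, was not analysed here. OCI-Ly10 is an established human lymphoma line, a diffuse large B cell type of the activated (ABC) subtype, and MZ1 is a degrader that brings BET bromodomain proteins to the VHL ubiquitin ligase. The 3 libraries (replicates 1, 2 and 3) form the only labelled group, all from OCI-Ly10 cells with MZ1 at 6 h. No dose of MZ1 is given in the labels. The labels mention further lymphoma lines and a later time of treatment, which were not analysed here. Without untreated cells no effect of MZ1 could be estimated, and the values describe levels in 1 treated line and their spread between libraries. Nothing in the labels says whether the replicates were separate cultures, so p-values measure only how these samples spread, and that spread may be technical.

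MYD88 is the adaptor that most toll-like receptors (TLRs) and the receptors of the interleukin-1 family recruit through their TIR domains. It gathers the kinases IRAK4 and IRAK1, and IRAK1 engages the ubiquitin ligase TRAF6, whose ubiquitin chains activate the TAK1 and IKK kinases and then NF-kB. TLR7 senses single-stranded RNA in endosomes and reaches them with UNC93B1, a membrane protein that escorts nucleic acid-sensing TLRs out of the endoplasmic reticulum. TLR10 belongs to the subfamily of TLR1 and TLR6, which act at the cell surface, so it is not an endosomal receptor of the TLR7 kind. In ABC lymphoma this pathway is known as a source of NF-kB activity.

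Total counts were 5474462 in replicate 1, 1441246 in replicate 2 and 1314812 in replicate 3, so 1 count was worth 0.200, 0.629 and 0.767 CPM in the 3 libraries. CPM is the usual depth-scaled count, here with library sizes adjusted by TMM factors, and levels per kb divide it by the merged exon length of the gene. Replicate 1 was the deepest library, and replicate 2 differed from both others in the levels of GC-rich genes. The biological coefficient of variation (an edgeR term, here possibly technical) was estimated over genes that passed an expression filter. It was 38.8% with all 3 libraries, 30.1% without replicate 1, 38.8% without replicate 2 and 47.1% without replicate 3. The 7 genes together held 763, 146 and 237 counts in replicates 1, 2 and 3. None of the 7 (0 of 7) had exons that overlap a gene on the opposite strand. B cell markers fitted the label of the line, with 7 of 7 at 1 CPM or more in every library and summed levels of 1699, 1133 and 2034 CPM in replicates 1, 2 and 3. Of the markers of other cells that were analysed, 1 of 2 for T cells, 2 of 3 for myeloid cells and 3 of 3 for plasmacytoid dendritic cells reached that level, with sums of 4.40 to 13.2, 23.8 to 31.0 and 309 to 428 CPM. The share of all genes in the table at that level was 68.0%. These 3 lists held 6, 6 and 5 markers, and CD3D, CD3E, CD3G, CD8A, CD14, S100A9, FCGR1A, CLEC4C and IL3RA were not analysed here. TCF4 alone had 280 to 378 CPM of the plasmacytoid dendritic cell sum. The part of such cells in the results was not tested.

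Of the 7 genes, 5 reached 1 CPM in every library, and the share among all genes in the table was 68.0%. These 5 were MYD88, IRAK1, IRAK4, UNC93B1 and TLR10, while TRAF6 and TLR7 did not. In bulk RNA, fewer cells that express a gene and less RNA per cell cannot be told apart, and this holds for every level below. Ordered by mean level per kb, IRAK1 came first, followed by MYD88, UNC93B1, IRAK4, TLR10, TRAF6 and TLR7. Among the 15668 genes with a known length, the mean level per kb placed IRAK1 at percentile 86.6, MYD88 at 79.3, UNC93B1 at 65.7, IRAK4 at 60.6, TLR10 at 36.8, TRAF6 at 20.9 and TLR7 at 8.43. The place of UNC93B1 above IRAK4 rested on replicate 1. Without replicate 1, and with the scaling kept, UNC93B1 averaged 2.04 CPM per kb (percentile 48.9) and IRAK4 3.61, so that IRAK4 came before UNC93B1. Among these genes of the table, MYD88 and IRAK1 therefore lay high, IRAK4 moderately above the middle, and TRAF6 and both receptors below it. UNC93B1 lay above the middle with all 3 libraries, and at percentile 48.9 without replicate 1.

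**Figure D1:**
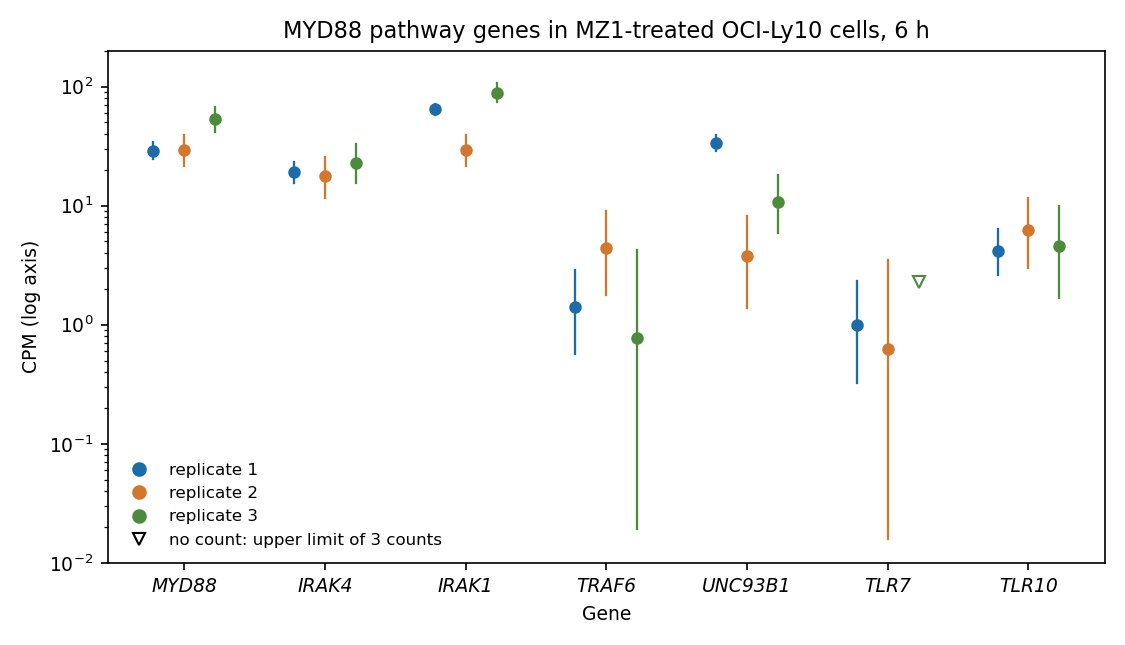
CPM (log axis) of the 7 genes in each of the 3 libraries of OCI-Ly10 cells with MZ1 for 6 h. Points are libraries, bars are exact 95% Poisson intervals that cover counting error only, and the open triangle is the limit of 2.30 CPM that no count allows for TLR7 in replicate 3. IRAK1 and UNC93B1 spread widely between libraries, while IRAK4 stayed between 17.6 and 23.0 CPM.

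MYD88 (ENSG00000172936.11) lies on GRCh38 chromosome 3, 38138478 to 38143022, plus strand. It had 145, 47 and 70 counts, which are 29.0, 29.5 and 53.7 CPM in replicates 1, 2 and 3. Replicates 1 and 2 were alike and replicate 3 was higher, outside the exact 95% Poisson interval of replicate 1 (24.5 to 34.1 CPM) and of replicate 2 (21.7 to 39.3 CPM). MYD88 averaged 37.4 ± 14.1 CPM (SD, n = 3), and every later ± is likewise an SD over 3 libraries. No stretch of 50 bases in its longest transcript recurred in the transcripts of another gene (0 of 3265). Only stretches of this length and the longest transcript were searched.

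IRAK4 (ENSG00000198001.12, chromosome 12, 43758944 to 43789543, plus strand) encodes the kinase that MYD88 binds first. It had 95, 28 and 30 counts, or 19.0, 17.6 and 23.0 CPM in replicates 1, 2 and 3. All 3 libraries lay within one another's counting intervals (15.4 to 23.2, 11.7 to 25.4 and 15.5 to 32.9 CPM), and the mean was 19.9 ± 2.81 CPM. IRAK4 had the lowest coefficient of variation of the 7 genes, at 14.2%.

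IRAK1 (ENSG00000184216.10, chromosome X, 154010500 to 154019980, minus strand) encodes the kinase that passes the signal to TRAF6. It had 322, 47 and 116 counts, or 64.4, 29.5 and 89.0 CPM in replicates 1, 2 and 3. The 3 counting intervals did not overlap, at 57.5 to 71.8 CPM for replicate 1, at 21.7 to 39.3 CPM for replicate 2 and at 73.5 to 106.7 CPM for replicate 3. The mean was 61.0 ± 29.9 CPM.

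TRAF6 (ENSG00000175104.13, chromosome 11, 36487027 to 36510272, minus strand), the ubiquitin ligase of the relay, was measured by few counts. It had 7, 7 and 1 counts, or 1.40, 4.40 and 0.767 CPM in replicates 1, 2 and 3. The exact 95% intervals of 0.563 to 2.88, 1.77 to 9.06 and 0.0194 to 4.27 CPM overlapped, but an overlap does not show that the libraries were equal. The mean was 2.19 ± 1.94 CPM, and 1.08 CPM without replicate 2. A pseudogene, TRAF6P1, shared 4.15% of the windows of 50 bases in its longest transcript, and it was not among the genes analysed.

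The promoters of the cytosolic relay genes are shown because genes from a high to a barely measured level all hold GC boxes there. RefSeq start sites (GRCh38.p14) were available for MYD88, IRAK1, IRAK4 and TRAF6, 4 of the 7 genes. Each line gives the 250 bases before the start, 5′ to 3′ on the strand of the gene, for chr3:38138411-38138660, chrX:154019903-154020152, chr12:43758701-43758950 and chr11:36510273-36510522 in that order. Capitals mark the GC box GGGCGG on either strand, which binds SP family factors, and in MYD88 also the interferon-stimulated response element, searched as GAAA, any 2 bases and GAAA on either strand.
MYD88: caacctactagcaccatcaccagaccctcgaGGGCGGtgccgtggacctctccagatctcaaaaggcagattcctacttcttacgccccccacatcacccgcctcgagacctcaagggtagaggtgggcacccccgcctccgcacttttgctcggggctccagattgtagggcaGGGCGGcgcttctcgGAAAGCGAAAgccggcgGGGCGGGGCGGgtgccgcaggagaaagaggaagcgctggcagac
IRAK1: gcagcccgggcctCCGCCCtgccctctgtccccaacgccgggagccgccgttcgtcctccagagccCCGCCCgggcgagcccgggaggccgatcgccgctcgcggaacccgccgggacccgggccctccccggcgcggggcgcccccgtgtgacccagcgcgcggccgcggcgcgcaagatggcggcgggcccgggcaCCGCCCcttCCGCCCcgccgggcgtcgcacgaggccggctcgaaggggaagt
IRAK4: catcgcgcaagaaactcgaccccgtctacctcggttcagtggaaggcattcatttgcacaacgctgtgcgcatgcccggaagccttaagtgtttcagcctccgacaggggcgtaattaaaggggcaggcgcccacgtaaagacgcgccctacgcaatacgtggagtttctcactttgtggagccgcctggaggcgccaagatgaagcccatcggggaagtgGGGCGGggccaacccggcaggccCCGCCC
TRAF6: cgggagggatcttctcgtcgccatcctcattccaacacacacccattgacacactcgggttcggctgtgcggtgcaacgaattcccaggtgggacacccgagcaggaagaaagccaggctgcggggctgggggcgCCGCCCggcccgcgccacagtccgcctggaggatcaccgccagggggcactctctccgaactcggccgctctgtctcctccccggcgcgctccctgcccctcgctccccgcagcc

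The GC box was found 4 times for MYD88 and for IRAK1, 2 times for IRAK4 and 1 time for TRAF6, with overlapping matches counted, and 42.6% of 35116 RefSeq promoters hold it in the same window. The response element of MYD88, GAAAGCGAAA, lies 61 to 52 bases before the start, and 3.02% of all promoters hold a match. Only 1 form of the NF-kB motif (GGG, any 2 bases, TTTCC) was searched. This form, the octamer ATGCAAAT of B cell promoters and the TATA motif TATAAA had no match in these 4 windows on either strand. The shares of all promoters with a match were 1.73%, 1.63% and 10.7%, so no match in 4 windows says little of these genes. GC content of the windows was 64.4% for MYD88, 82.4% for IRAK1, 61.6% for IRAK4 and 69.6% for TRAF6, with a median of 58.0% over all promoters. These matches describe letters and not bound sites. The RefSeq start lies 183 bases inside the GENCODE gene for MYD88, 78 for IRAK1 and 7 for IRAK4.

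Within the relay, MYD88 and IRAK1 both lay above IRAK4 in every library. The level per kb of MYD88 over IRAK4 had a log2 ratio of 1.09, 1.23 and 1.70 in replicates 1, 2 and 3, a mean of 1.34 ± 0.32 or 2.53-fold. IRAK1 over IRAK4 had log2 ratios of 2.23, 1.22 and 2.42, with a mean of 1.96 ± 0.64 or 3.88-fold. Without replicate 1 the means were 1.47 and 1.82. The exact two-sided sign-flip permutation test gave p = 0.25 for both, the smallest that 3 libraries allow, and 0.32 adjusted over the 9 gene pairs computed, so no pair could pass 0.05. MYD88 and IRAK1 were not separated, since the log2 ratio of MYD88 over IRAK1 was -1.13, 0.00 and -0.72, with a mean of -0.62 ± 0.58 (exact permutation p = 0.5, adjusted 0.5). IRAK4 lay above TRAF6 in 3 of 3 libraries by 2.94 ± 1.18 on the log2 scale per kb, on only 15 counts of TRAF6 in all, and with a pseudocount of 0.1 or 1 CPM in place of 0.5 the mean was 3.25 or 2.66. Leaving out replicate 1, 2 or 3 gave 2.85, 3.56 or 2.41. IRAK1 has 63.0% GC and IRAK4 42.1%, and the libraries shifted with GC content, as described below. No pair ratio was corrected for GC content, nor were the IRAK shares that follow.

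The IRAK family was represented mainly by IRAK1. Of the summed level per kb of the 4 IRAK genes, IRAK1 made up 79.2%, 67.1% and 81.7% in replicates 1, 2 and 3, and IRAK4 made up 16.6%, 28.4% and 15.0%. IRAK2, a kinase of late signalling, had 12, 1 and 3 counts, and IRAK3, also called IRAK-M and known as an inhibitor of the relay, had 8, 5 and 3 counts. IRAK1 lay above IRAK2 by a log2 ratio per kb of 4.54 ± 0.26, and IRAK4 above IRAK3 by 3.70 ± 0.48, both in 3 of 3 libraries (exact permutation p = 0.25, adjusted 0.32). These ratios depend on the pseudocount, and with 0.1 CPM they were 4.88 and 3.90, and with 1 CPM 4.22 and 3.49. IRAK3 has an antisense overlap, meaning that part of its exons lies opposite another gene, and without a stated strand setting reads of such partners cannot be told apart.

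**Figure D2:**
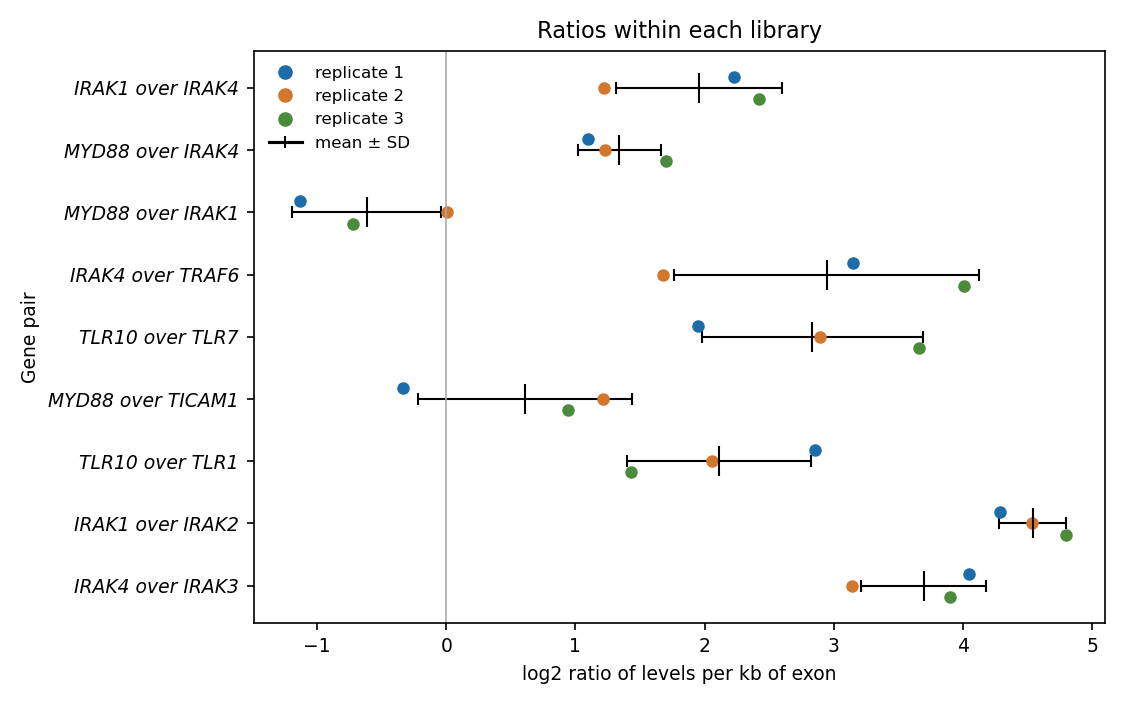
Log2 ratio of levels per kb of merged exons, log2(CPM + 0.5), for 9 gene pairs within each of the 3 libraries. Points are libraries and black bars are the mean ± SD (n = 3). In 7 pairs all 3 libraries lie on the same side of 0, while MYD88 over IRAK1 and MYD88 over TICAM1 cross it.

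Of the receptors TLR10 and TLR7, TLR10 was measured above 1 CPM in every library. TLR10 (ENSG00000174123.9, chromosome 4, 38772239 to 38782990, minus strand) had 21, 10 and 6 counts, or 4.20, 6.29 and 4.60 CPM in replicates 1, 2 and 3. The libraries overlapped in their intervals (2.60 to 6.42, 3.01 to 11.6 and 1.69 to 10.0 CPM), and the mean was 5.03 ± 1.11 CPM. TLR1 (38790677 to 38856817) and TLR6 (38823715 to 38856817) are its neighbours in the gene cluster on chromosome 4, on the same strand, and their annotated spans overlap each other. TLR1 had 1, 2 and 2 counts and TLR6 had 8, 5 and 1 counts. TLR10 lay above TLR1 in 3 of 3 libraries, by a log2 ratio per kb of 2.11 ± 0.71 (exact permutation p = 0.25, adjusted 0.32), and the mean was 2.64 with a pseudocount of 0.1 CPM and 1.75 with 1 CPM.

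TLR7 was near the limit of detection. TLR7 (ENSG00000196664.4, chromosome X, 12867083 to 12890380, plus strand) had 5, 1 and 0 counts, or 1.00, 0.629 and 0 CPM in replicates 1, 2 and 3. The missing count in replicate 3 allows a level of up to 2.30 CPM (3 counts), so absence is not shown. TLR8, its neighbour on chromosome X from 12906620 and another sensor of single-stranded RNA, had 1, 0 and 0 counts. TLR10 lay above TLR7 in 3 of 3 libraries. The log2 ratio per kb was 2.83 ± 0.85, and 2.42 without replicate 3, where TLR7 had no count (exact permutation p = 0.25 over the 3 libraries, adjusted 0.32). With a pseudocount of 0.1 CPM the mean was 3.86, and with 1 CPM it was 2.31. Among the 7 toll-like receptors analysed (TLR1, TLR2, TLR4, TLR6, TLR7, TLR8 and TLR10), TLR10 made up 49.2%, 54.8% and 67.6% of the summed level per kb in replicates 1, 2 and 3, on 54, 23 and 10 counts for all 7 together.

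UNC93B1 (ENSG00000110057.6, chromosome 11, 67991104 to 68004982, minus strand), the escort of endosomal TLRs, differed most between libraries. It had 168, 6 and 14 counts, or 33.6, 3.77 and 10.7 CPM in replicates 1, 2 and 3. Replicate 1 (28.7 to 39.1 CPM) lay above both other intervals (1.38 to 8.21 and 5.87 to 18.0 CPM), which overlapped. The mean was 16.0 ± 15.6 CPM, and the SD was nearly as large as the mean, with a coefficient of variation of 97.3%. Without replicate 1 the mean was 7.26 CPM. Of the windows of 50 bases in its longest transcript, 19.4% recurred in 7 pseudogenes, UNC93B2 to UNC93B8. None of these 7 (0 of 7) was among the genes analysed, and the labels do not say how the counting treated reads from shared stretches. For IRAK4, TLR7, TLR10 and IRAK1 the shared windows were 2.69%, 1.63%, 1.15% and 0.746%. They recurred in 178, 181, 185 and 22 other genes, of which 128, 122, 134 and 15 were in the count table.

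The order of the 7 levels was not the same in each library. By level per kb, replicate 1 had IRAK1, UNC93B1, MYD88, IRAK4, TLR10, TRAF6 and TLR7 from high to low. Replicate 2 had MYD88, IRAK1, IRAK4, TLR10, UNC93B1, TRAF6 and TLR7. Replicate 3 had IRAK1, MYD88, IRAK4, UNC93B1, TLR10, TRAF6 and TLR7. Only UNC93B1 and the leading pair changed place relative to the others. Among the 6 neighbours in the mean order, IRAK1 over MYD88 (0.62 ± 0.58 on the log2 scale), MYD88 over UNC93B1 (1.46 ± 1.61) and UNC93B1 over IRAK4 (-0.11 ± 1.47) did not keep 1 direction in all libraries. IRAK4 over TLR10 (1.47 ± 0.42), TLR10 over TRAF6 (1.47 ± 0.77) and TRAF6 over TLR7 (1.36 ± 0.89) kept it in 3 of 3. The exact permutation p was 0.25 for each, and 0.5 adjusted over the 6 neighbours. The mean order came from these same libraries, which favours that direction, so these p-values are no test of the order. TRAF6 over TLR7 rested on 7, 7 and 1 counts against 5, 1 and 0, with overlapping counting intervals in each library.

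Differences between libraries beyond counting noise were tested gene by gene, by chi-square over the 3 counts against equal expression, with Benjamini-Hochberg adjustment over the 10016 genes that averaged 10 counts or more. The test compares libraries and not conditions. MYD88 (adjusted p = 0.000124), IRAK1 (1.85e-09) and UNC93B1 (3.23e-12) varied, which is 3 of the 5 members tested, and 67.2% of all genes tested did so. A share near that background says nothing particular of these genes. IRAK4 (adjusted p = 0.599) and TLR10 (0.616) did not pass, and TRAF6 and TLR7 had too few counts to be tested. Without replicate 1, MYD88 (0.0163) and IRAK1 (6.37e-09) passed, UNC93B1 did not (0.0920, from 6 and 14 counts), and TLR10 dropped below the count minimum, so that 2 of 4 members tested passed against a background of 33.8%. Without replicate 2, MYD88, IRAK1 and UNC93B1 again passed, 3 of 5 members tested against 45.2% of all genes tested. Without replicate 3, IRAK1 and UNC93B1 passed, 2 of 5 against 56.2%, and MYD88 had an adjusted p of 0.934 in the chi-square test, so its call rested on replicate 3.

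The libraries also differed by the GC content of genes, and the members span much of that range. Genes averaging 10 CPM or more were put into 8 equal bins by the GC content of their longest transcript. The most GC-rich bin, with a median GC content of 61.0%, was shifted by -1.37 (median log2 difference) between replicates 2 and 1, taken as 2 minus 1, by -0.24 between replicates 3 and 1, and by 1.02 between replicates 3 and 2. In the bin with a median of 42.2% these shifts were 0.21, 0.01 and -0.11. IRAK1 (63.0% GC) and UNC93B1 (65.5%) fall in the first of these bins, IRAK4 (42.1%) and TRAF6 (41.9%) in the second. MYD88 has 51.9% GC, TLR7 40.8% and TLR10 38.3%.

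Both GC-rich members moved with their bin between replicates 2 and 1, and both also departed from it. IRAK1 differed by -1.11 on the log2 scale (counting SE 0.23) in replicate 2 against replicate 1, near its bin, but by 0.46 (SE 0.16) in replicate 3 against replicate 1. UNC93B1 differed by -3.00 (SE 0.60) and -1.60 (SE 0.40), further down than its bin in both cases. MYD88 differed by 0.03 (SE 0.24) and 0.88 (SE 0.21), above the medians of its own bin, -0.34 and -0.17. With library sizes corrected per GC bin, MYD88 (adjusted p = 1.05e-05), IRAK1 (4.25e-05) and UNC93B1 (5.24e-05) still passed the chi-square test, as did 61.0% of all genes tested. IRAK4 (0.425) and TLR10 (0.888) again did not. Between replicates 3 and 2 alone, IRAK1 differed by 1.57 (SE 0.25), UNC93B1 by 1.40 (SE 0.70) and MYD88 by 0.85 (SE 0.27), all in the direction of their bins. With replicate 1 left out and the correction per GC bin together, an alternative chosen after seeing the data, the chi-square test called 0 of 4 members, with adjusted p of 0.0533 for MYD88, 0.123 for IRAK1, 0.309 for IRAK4 and 0.706 for UNC93B1. 2 of the 4 had an unadjusted p under 0.05, and the background was 26.7%. The calls of MYD88 and IRAK1 without replicate 1 thus did not hold under the correction.

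**Figure D3:**
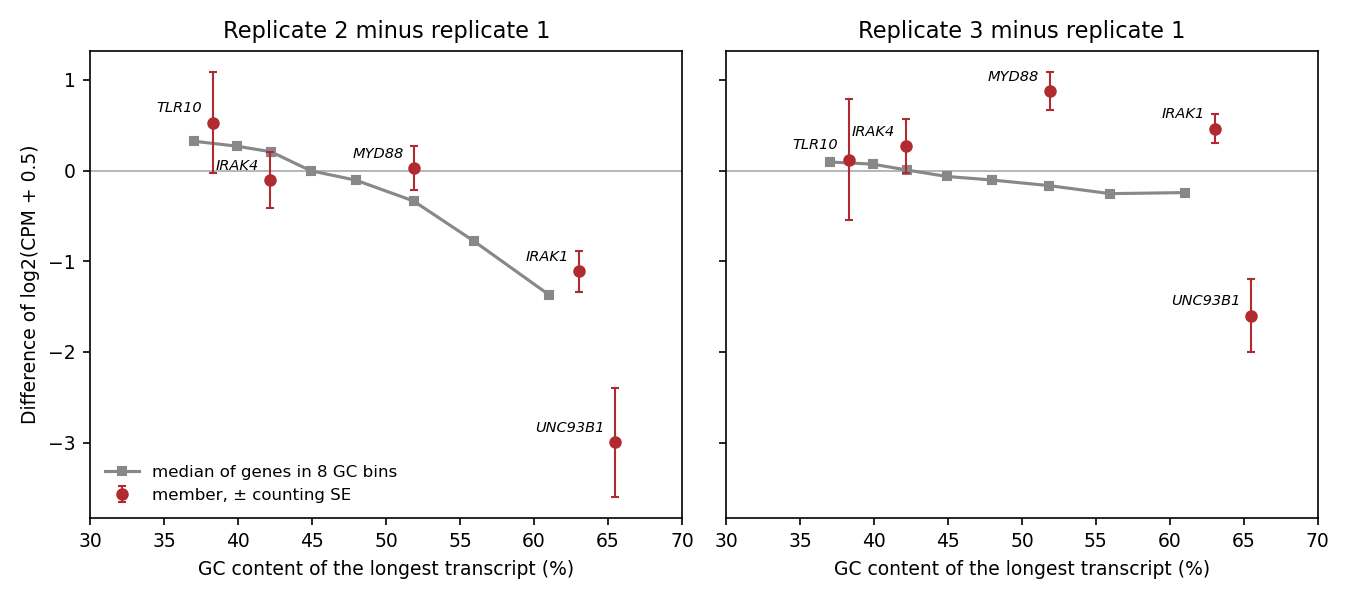
Difference of log2(CPM + 0.5) between libraries against the GC content of the longest transcript, for replicate 2 minus replicate 1 (left) and replicate 3 minus replicate 1 (right). Grey squares are the medians of 8 GC bins over genes averaging 10 CPM or more, and red points are the 5 members averaging 10 counts or more, with the counting SE. UNC93B1 lies below the grey line in both panels and MYD88 above it.

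Around the members, 75 further genes of the pathway were followed in 9 lists, and 61 of them reached 1 CPM in every library (68.0% over all genes). Listed genes not analysed here were TLR3, TLR5, CD14, CTSL, LGMN, TICAM2, IL18RAP, IL1RL1, IL1RL2 and IFNB1. In the chi-square test 43 of 59 tested varied between libraries (67.2% over all genes), 38 with the correction per GC bin (61.0% over all genes), and 25 of 52 without replicate 1 (33.8% over all genes). Without replicate 1 and with that correction, 17 of 52 did (26.7% over all genes). The shares of 68.0%, 67.2% and 61.0% are the background for the list counts below, and a count near them says nothing particular of a list.

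Few other receptors were well measured. Of 8 analysed among the other TLRs and their accessory proteins, 2 reached 1 CPM in every library (68.0% over all genes). The medians were 0.305, 0.389 and 0.233 CPM per kb in replicates 1, 2 and 3, against 3.37, 1.49 and 3.03 for the members. The highest were LY96, the MD-2 partner of TLR4, at 6.89 ± 4.97 CPM per kb, LY86, the MD-1 partner of CD180, at 3.45 ± 2.55, and CD180, a TLR-like receptor of B cells, at 3.10 ± 1.65. TLR8 was the lowest. LY96 averaged 4.08 CPM per kb without replicate 1. All 3 tested here (LY96, LY86 and CD180) varied (67.2% over all genes), and 2 with the correction per GC bin (61.0% over all genes). Receptors of the interleukin-1 family, which also use MYD88, had 1 of 3 genes at 1 CPM or more throughout, with IL1R1 at 1.25 ± 0.72, IL18R1 at 0.183 ± 0.0431 and IL1RAP at 0.148 ± 0.138 CPM per kb. IL1R1, the 1 gene of that list tested, varied, and it has an antisense overlap.

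Of 13 genes listed as folding, moving and processing endosomal TLRs, all but CTSL and LGMN were analysed. Of those analysed, 11 of 11 were at 1 CPM or more in every library (68.0% over all genes). Their medians were 12.2, 9.27 and 17.8 CPM per kb. HSP90B1, the chaperone gp96 on which TLR folding depends, had 777 ± 232 CPM per kb, the protease gene CTSS 55.2 ± 16.0 and CNPY3, a co-chaperone of gp96, 27.5 ± 12.6. The lowest was the endosomal nuclease gene PLD3 at 1.62 ± 1.20, and 0.929 without replicate 1. In the chi-square test 10 of 11 varied (67.2% over all genes), and 8 with the correction per GC bin (61.0% over all genes). HSP90B1 and PLD3 have antisense overlaps.

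Among the other adaptors, PIK3AP1 (BCAP), which links TLRs to PI3 kinase, had 17.0 ± 1.95 CPM per kb, TICAM1 (TRIF), the adaptor of the MYD88-independent branch, 6.35 ± 3.07, SARM1 1.68 ± 0.42 and TIRAP, the bridge between surface TLRs and MYD88, 1.01 ± 0.425. All 4 of these reached 1 CPM in every library (68.0% over all genes), and TICAM2, also listed, was not analysed here. MYD88 lay above TICAM1 in 2 of 3 libraries, with a log2 ratio per kb of 0.61 ± 0.83 (exact permutation p = 0.5, adjusted 0.5) and 1.08 without replicate 1. Of 3 adaptors tested 1 varied, TICAM1 (67.2% over all genes), and 0 of 3 with the correction per GC bin (61.0% over all genes). SARM1 and TIRAP have antisense overlaps.

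Inhibitors and ubiquitin ligases around the IRAKs were led by TNIP1 at 22.3 ± 6.30 CPM per kb, TNFAIP3 (A20), which removes ubiquitin chains from TRAF6, at 17.3 ± 10.1 (11.4 without replicate 1), and PELI1, a ligase of the Pellino family that acts on IRAK1, at 11.6 ± 2.33. IRAK3 was the lowest at 0.235 ± 0.0772. In this list 8 of 11 genes reached 1 CPM in every library (68.0% over all genes). Of 7 tested 4 varied (67.2% over all genes), also with the correction per GC bin (61.0% over all genes). PELI1 and TNFAIP3 have antisense overlaps.

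Downstream of TRAF6, 13 of 15 genes of the TAK1, ubiquitin and IKK machinery reached 1 CPM in every library (68.0% over all genes). The ubiquitin-conjugating enzyme gene UBE2N, the partner of TRAF6 in making chains, had 35.8 ± 6.89 CPM per kb, the kinase gene TBK1 12.5 ± 4.40 and TRAF3, a relative of TRAF6 that steers signals to interferon genes, 5.87 ± 2.88. IKBKE was the lowest, with 14, 0 and 0 counts. The test called 6 of the 12 genes tested (67.2% over all genes), and 7 with the correction per GC bin (61.0% over all genes). UBE2N, TBK1 and IKBKE have antisense overlaps.

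Levels of the transcription factors that act with the pathway spanned a wide range. SPIB, an ETS factor of B cells, had 327 ± 51.3 CPM per kb, IRF4 68.0 ± 21.3 and IRF8 9.84 ± 3.89, and IRF1 was the lowest at 1.15 ± 0.209. All 6 reached 1 CPM in every library (68.0% over all genes), 5 of 6 varied (67.2%), and 4 did with the correction per GC bin (61.0%). Partners from the B cell receptor side were led by CD79A at 375 ± 197, BTK at 48.8 ± 2.58, SYK at 42.6 ± 16.6 and the paracaspase gene MALT1, the lowest, at 1.76 ± 0.34 CPM per kb. All 10 of these reached 1 CPM in every library and 8 varied (7 with the correction per GC bin), against the same shares over all genes. BTK and MALT1 were those that did not vary in the main test. IRF1 and MALT1 have antisense overlaps.

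Genes known as outputs of MYD88 signalling had the highest median of the 9 lists in each library. The medians were 109, 25.2 and 31.8 CPM per kb in replicates 1, 2 and 3. Partners from the B cell receptor side came next, at 35.5, 18.4 and 30.4. CD83 had 309 ± 74.1 CPM per kb, the NF-kB inhibitor gene NFKBIA 296 ± 125 and the chemokine gene CCL3 89.4 ± 105. CCL3 rested on replicate 1, since its levels were 315, 37.7 and 47.6 CPM in replicates 1, 2 and 3, and without replicate 1 it averaged 28.5 CPM per kb. IL6 had no count, and the limits from 3 counts are 0.600, 1.89 and 2.30 CPM. The test called 5 of 6 outputs (67.2% over all genes), also with the correction per GC bin (61.0% over all genes). Of the 6 averaging 10 CPM or more 5 were highest in replicate 1, against 43.1% of all such genes. Of the 4 members with such a mean, 1 was (UNC93B1). CCL3 and IL6 have antisense overlaps.

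**Figure D4:**
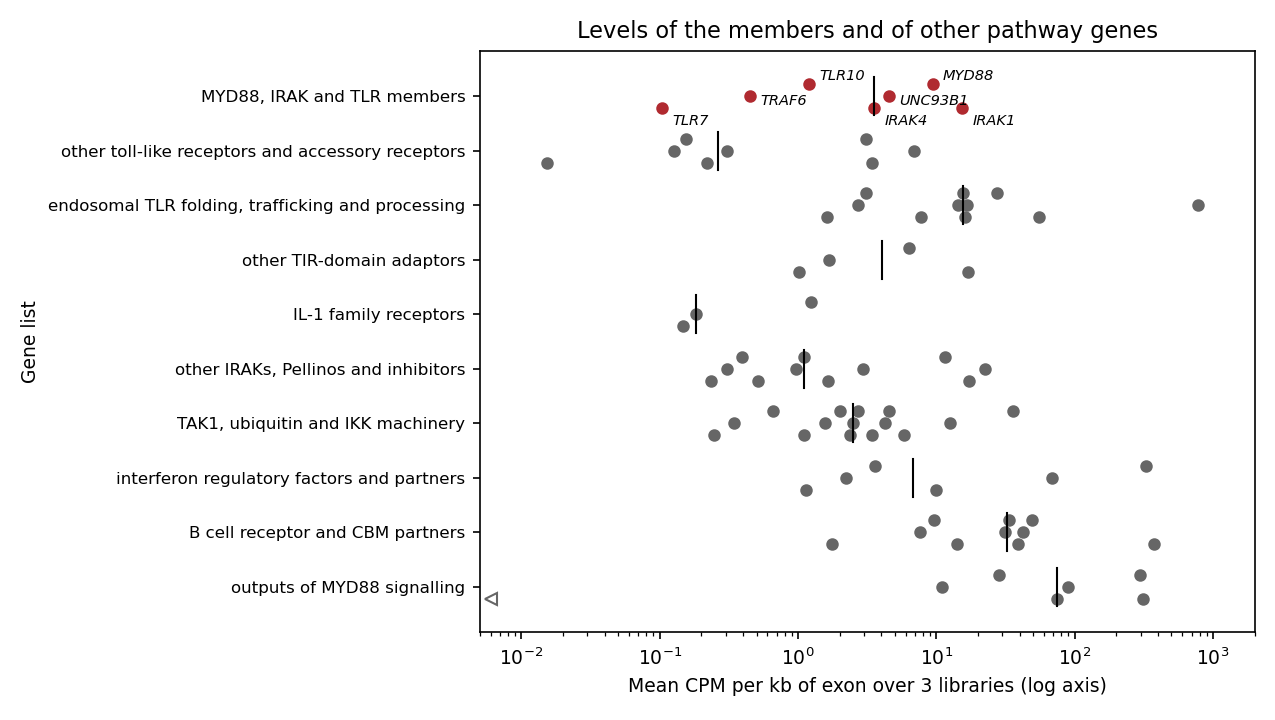
Mean CPM per kb of merged exons over the 3 libraries (log axis) for the 7 members (red, named) and for the other pathway genes (grey) by list. Points are genes, black bars are list medians, and the open triangle at the left edge is IL6, which had no count. The members run from TLR7 at 0.104 to IRAK1 at 15.2 CPM per kb.

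The pathway genes most like each member were found by the root mean square difference of log2(CPM + 0.5) per kb over the 3 libraries, among 81 genes. With 3 libraries this is a description only. MYD88 was nearest to the protease gene CTSB (0.34) and to IRF8 (0.43). IRAK1 was nearest to AP3D1, a subunit of the adaptor complex AP-3 (0.34), and to PLD4, an endosomal nuclease gene (0.42). IRAK4 was nearest to RNF31 (0.27), a subunit of the linear ubiquitin ligase, and TAB2 (0.38), a partner of TAK1. TLR10 was nearest to TIRAP (0.39) and IRF1 (0.40). UNC93B1 had no close match, with LY86 at 0.69 and IRF5 at 0.72. IRAK1 (63.0% GC), AP3D1 (59.2%) and PLD4 (60.7%) fall in the same GC bin, as do MYD88, CTSB and IRF8. The nearest genes of IRAK4, TLR10 and UNC93B1 fall in other bins than these members. The part of the GC shifts in such likeness was not tested.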

How the data were processed

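RNA was sequenced from OCI-Ly10 cells with MZ1 in 3 replicate libraries. Per the labels' protocols, RNA was taken up in Trizol and 1 µg went into an Illumina TruSeq kit. The deposited raw read counts carry versioned Ensembl IDs, and the deposited log2 table holds log2 CPM made by the authors, in which a count of 0 is listed at -1.15. STAR, edgeR and hg38 are named, per the submitters' processing notes. Versions, counting tool, strand setting and annotation: not given in the sources used here.

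Counts were scaled with TMM (edgeR 4.0.16, R 4.3.3). The log2 scale used is log2(CPM + 0.5). It understates differences of low genes. Of the IDs, 15668 matched GENCODE release 29 (GRCh38) and 140 did not. Levels of different genes were compared per kb of merged exons. Gene lists, pairs, tests and members were chosen with earlier results of these data known, and counts over lists are descriptions. Genes named are the members, both genes of each pair, the 3 highest and the lowest of each pathway list by mean CPM per kb, and the 2 pathway genes nearest to each member averaging 10 counts or more. The other receptors and IRAKs in the family shares, and MIR3142HG, were named after values were seen. Of 12 pairs 9 could be computed. The chi-square test was tested on simulated Poisson counts, the model that it assumes. These lacked the GC shifts and added spread of the real libraries, so its behaviour on such libraries was not tested. Intervals are exact Poisson intervals at 95%. They, and limits from 3 counts, cover counting error only: these PCR-amplified reads carry no molecular identifiers. Alternatives were size factors of DESeq2 1.42.0, column totals, other filters, pseudocounts and lengths, thinning, a correction per GC bin, the deposited log2 values and leaving out each replicate.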

Additional observations from a re-analysis of the deposited data

How the results depend on the processing

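The count of members that varied between libraries was 3 in the main test (3 of 5 tested, 67.2% of all genes). It was 3 of 5 with DESeq2 size factors (67.0% of all genes), column totals (67.6%) and the correction per GC bin (61.0%), 3 of 7 with no filter beyond 1 count (51.0%), 3 of 4 at a mean count of 50 or more (81.1%) and 3 of 4 after thinning (62.7%). With no filter beyond 1 count, 4 members had an unadjusted chi-square p under 0.05, and TRAF6 had an adjusted p of 0.0640. Replicate 1 left out together with the correction per GC bin, chosen after seeing the data, gave 0 of 4 members (2 at an unadjusted p under 0.05), 17 pathway genes and 2246 of all genes by chi-square. Leaving out each replicate gave 2 to 3 members, 25 to 38 pathway genes (43 with all 3 libraries; 25 without replicate 1 and 27 without replicate 2) and 2854 to 5890 of all genes (6728 with all 3; 2854 without replicate 1), each with fewer samples in the test. At a threshold of 5 CPM, 3 members passed in every library, in place of 5 at 1 CPM. With the deposited log2 values, or without replicate 3, 6 members passed at 1 CPM. The means of the 9 pair ratios kept their sign under all 81 combinations of pair and alternative. MYD88 over IRAK1 and MYD88 over TICAM1 did not keep 1 sign across the libraries themselves. The mean log2 level of a member moved by less than its SD in 53 of 56 combinations, and by more for IRAK4 and TLR10 with the deposited log2 values and for TLR7 with a pseudocount of 0.1 CPM. No paired analysis was possible because the labels form a single group. Depth limits TRAF6 and TLR7 most, at 15 and 6 counts in all.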

Other observations

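MIR3142HG is the long non-coding host gene that contains the precursor of miR-146a on GRCh38 chromosome 5 (160485352 to 160485450, inside 160438594 to 160487426, plus strand). The mature miR-146a is known to target IRAK1 and TRAF6 transcripts. The host gene was picked after its values were seen. It had 54, 16 and 7 counts, or 10.8, 10.1 and 5.37 CPM in replicates 1, 2 and 3, a mean of 8.74 ± 2.94 CPM (SD, n = 3), and the chi-square test did not call a difference between libraries (adjusted p = 0.255). The miRNA itself was not measured by these counts.

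Of the genes listed as markers of plasmacytoid dendritic cells, which use TLR7 and UNC93B1 heavily, LILRA4 had 51.4, 13.2 and 37.6 CPM and TCF4 had 317, 280 and 378 CPM in replicates 1, 2 and 3, while GZMB had 15, 24 and 16 counts. TCF4, which many B cells also express, has antisense overlaps.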
